A study of Mus musculus with 67 samples.

Results

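The passage of undisturbed mouse embryos from the 8-cell stage to the morula was examined in 17 of 67 sequenced libraries. The members were chosen by their titles, as the 4 libraries labelled control 8-cell and the 13 labelled control morula. All embryos were C57BL/6, made by in vitro fertilization of oocytes from hormone-primed females. Control embryos were kept in the dark, whereas those of the light group were exposed to strong light at the 2-cell stage and were then returned to the dark. The 8 light 8-cell and 6 light morula libraries serve here as a comparison. By the methods of the study each library was a single cell picked from a dissociated embryo, and the titles give an embryo number to every library. Nothing says that the cells came from separate litters, so p-values measure only the spread between these libraries. RNA was amplified by SMART-seq2, which copies polyadenylated transcripts over their whole length.

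The interval covers compaction, when the rounded cells of the 8-cell embryo flatten against each other through E-cadherin and acquire an apical and a basolateral pole. Cells then come to lie inside or outside the morula. In outer cells the Hippo pathway is off, YAP1 and TAZ act with TEAD4, and CDX2 and GATA3 start the trophectoderm, the precursor of the placenta. Inner cells keep OCT4 (Pou5f1), NANOG and SOX2 and later divide into epiblast and GATA6-positive primitive endoderm. Ribosomes, mitochondrial activity and glucose use are known to build up over the same period, while transcripts left from the oocyte are cleared.

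Levels are given as CPM, the reads on a gene scaled to the same library total, counted outside CT010467.1 and Gm42418, which hold ribosomal RNA sequence and took 57.9% to 84.6% of the reads of the 17 libraries. Reads outside them numbered 453579 to 1482727 in the 8-cell libraries and 683775 to 1624605 in the morulae, a difference that did not pass the exact permutation test (two-sided, p = 0.89). CPM was not divided by transcript length, so a level can be compared between libraries but not between genes. At equal depth 11127 ± 334 genes were detected at the 8-cell stage (SD, n = 4) and 10309 ± 534 in morulae (SD, n = 13, p = 0.011 by the exact permutation test, adjusted over 7 features 0.025). Libraries of the same stage were more alike than libraries of different stages. Spearman's correlation over the genes tested was 0.732 to 0.759 within the 8-cell stage, 0.677 to 0.734 within the morulae and 0.563 to 0.652 between them. Cumulus cell markers summed to at most 1.00 CPM and sperm markers to at most 1.41 CPM in any of the 17 libraries.

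The 4 control 8-cell libraries held little RNA of several genes that are normally read from the father's chromosomes. Xist, the RNA that coats and silences the paternal X in female preimplantation embryos, was at 5.64, 3.71, 0 and 3.37 CPM in them. Reads of 4 Y-linked genes summed to at most 1.41 CPM, and the X chromosome gave 3.55 ± 0.212% of the autosomal signal (SD, n = 4), whereas the 3 light 8-cell libraries with at least 10 CPM of Y-linked reads gave 2.05% to 2.21%. The 5 light 8-cell libraries under this level held 301 to 1209 CPM of Xist, and the 3 others held 5.37 to 10.2 CPM. In the control morula libraries the Y-linked sum was at most 0.782 CPM. Gab1, a signalling adaptor expressed from the paternal copy, was at 0, 0, 0 and 0 CPM. Kcnq1ot1, a paternal antisense RNA chosen after its values were seen, was at 0, 0, 0 and 0.674 CPM. Not every such gene was low. The summed level of 17 paternally expressed imprinted genes was 115 to 272 CPM in the control 8-cell libraries, 123 to 480 CPM in the morulae and 152 to 459 CPM in the light 8-cell libraries, so that the groups overlapped. Usp29 alone gave 87.4, 264, 8.82 and 84.3 CPM of this in the control 8-cell libraries. Left out after its values were seen, the sum of the other 16 genes was 7.43 to 106 CPM, against 123 to 463 CPM in the morulae and 152 to 445 CPM in the light 8-cell libraries. In Gab1 the 4 libraries differed from all light 8-cell libraries, and in Xist from the 5 under 10 CPM of Y-linked reads. The 4 libraries are the whole of 1 side of the comparison. No fit without them is possible. What part this has in the other differences was not tested, and the control changes are given beside those of the light group further on.

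**Figure D1:**
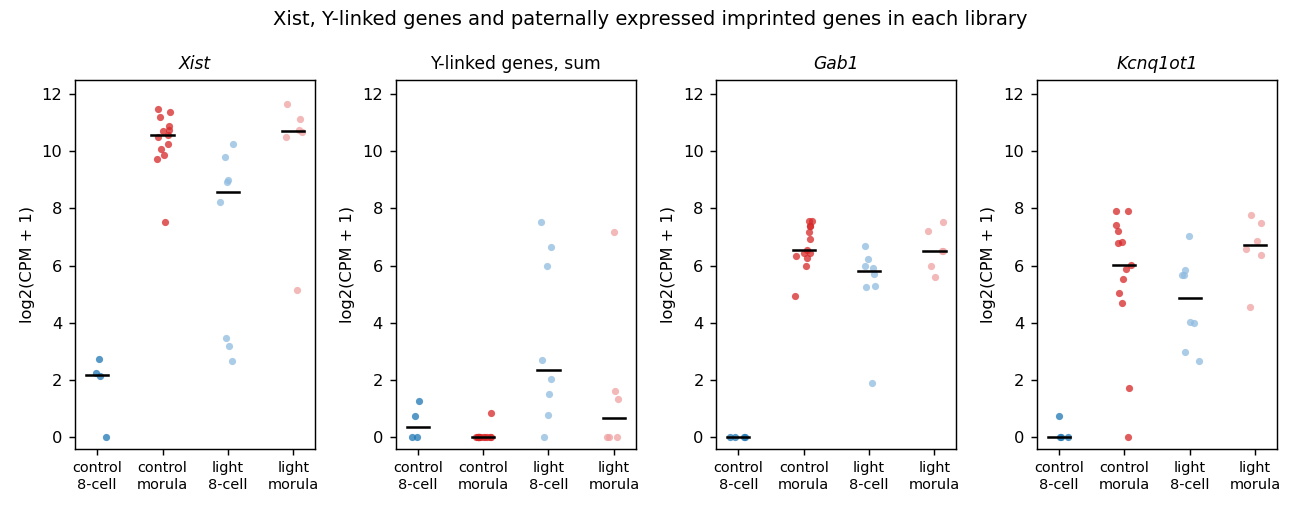
Level of Xist, the sum of 4 Y-linked genes, Gab1 and Kcnq1ot1 on the log2(CPM + 1) scale in each library of 4 groups. Points are libraries and bars are medians. Gab1 was at 0 in all 4 control 8-cell libraries and above 0 in every library of the other 3 groups.

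Between the stages 2347 of 14347 genes tested changed (16.4%), of which 1003 were higher in morulae (6.99%) and 1344 lower (9.37%). A change was called by limma on log2(CPM + 1) where the adjusted p was under 0.05 and the levels differed at least 2-fold. The 4 and the 13 libraries did not overlap for 916 of the genes tested (6.38%), 404 higher and 512 lower in morulae (2.82% and 3.57%). Of these, 864 were called (6.02%), 377 higher (2.63%) and 487 lower (3.39%). The median change over all genes tested was -0.07 on the log2 scale, and it moved to 0.06 on the deposited scale and to -0.13 with median ratio scaling. The 8-cell side carried most of the uncertainty. Without 8-cell library 2 or 4 there were 1488 and 1562 calls. The share of the calls that were higher in morulae was 42.7%, against 57.2% with DESeq2.

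**Figure D2:**
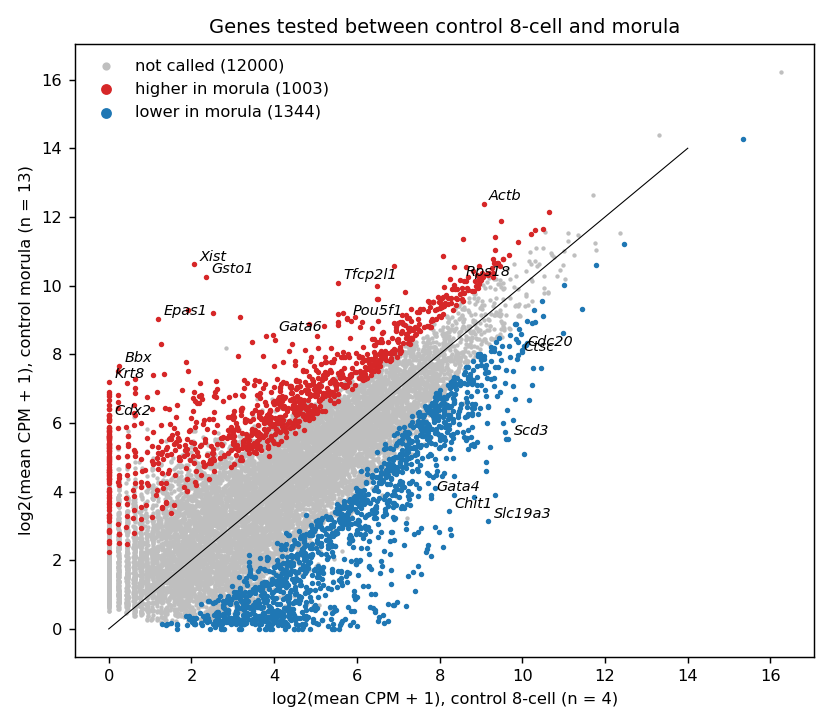
Mean level at the 8-cell stage (n = 4) and in morulae (n = 13) for each of the 14347 genes tested, on log2 axes with 1 CPM added, with the line of equal levels. Red points are the 1003 genes called higher and blue points the 1344 genes called lower in morulae. Gsto1 and Xist lie far above the line and Slc19a3 and Chit1 far below it.

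The 15 largest rises were picked among called genes without overlap between the stages, so that every morula lies higher follows from the choice. The ranking by log2 change also favours genes that were silent or nearly so at the 8-cell stage. Gsto1, a glutathione transferase of the omega class, was at 0, 2.23, 0 and 14.2 CPM in the 8-cell libraries and at 855 to 1834 CPM (median 1167) in morulae. It rose by 8.82 ± 0.45 (SE, adjusted p = 1.9e-12) on the log2 scale, and the lowest morula lay far above the highest 8-cell library. Epas1, which encodes the hypoxia-inducible factor HIF-2alpha, was at 0, 0.743, 4.41 and 0 CPM and then at 146 to 1146 CPM (median 497). It rested on 3 reads at the 8-cell stage, so that the ratio of summed reads per library total was 672 with a counting interval of 230 to 3257. Sdc4, a heparan sulfate proteoglycan of the cell surface, went from between 0 and 15.4 CPM to between 20.6 and 1709 CPM (median 488), with a log2 change of 7.10 ± 0.79 (SE, adjusted p = 8e-07). Bbx, a DNA-binding protein with an HMG box, was detected by 1 read in 1 of the 8-cell libraries and was at 39.4 to 699 CPM (median 191) in morulae.

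Several of these rises were in genes of the cytoskeleton and metabolism. Tpm4, a tropomyosin, was at 0, 0, 30.9 and 0 CPM and then at 63.4 to 403 CPM (median 267). Tagln2, the actin-binding transgelin 2, had no read in any 8-cell library and 1.29 to 381 CPM (median 86.3) in morulae, at least 158-fold higher against a floor of 3 reads over the group. By the same reckoning Gab1 was at least 152-fold and Stard10, a lipid transfer protein, at least 121-fold higher. Their fitted log2 changes depend on the pseudocount and are not repeated here. Ass1, the argininosuccinate synthase that rebuilds arginine from citrulline, was at 0, 0, 0 and 0.674 CPM at the 8-cell stage and at 44.6 to 622 CPM (median 116) in morulae. The acyl-CoA dehydrogenase Acadl, a step of fatty acid oxidation, rose by 6.43 ± 0.64 (SE, adjusted p = 1.9e-07), the LIM protein gene Crip2 by 7.00 ± 0.66 (SE, adjusted p = 7.8e-08) and the cyclin G1 gene Ccng1, a target of p53, by 7.04 ± 0.55 (SE, adjusted p = 3.4e-09). Xist and its antisense partner Tsix were also among the 15 largest rises. Without strand in the counting their reads cannot be told apart.

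The largest falls, picked in the same way and so without overlap, ran to a low median level in morulae. Their 8-cell levels were close together in some genes and spread in others. Slc19a3, a thiamine transporter, was at 659, 530.2, 575 and 552 CPM and then at 0 to 51.8 CPM (median 1.46), with a log2 change of -7.38 ± 0.96 (SE, adjusted p = 7.1e-06). The stages did not overlap. Abcb5, a transporter of the ABC family, went from between 223 and 378 CPM to between 0 and 22.3 CPM (median 0). Sp6, a zinc finger factor of the SP family, went from between 134 and 173 CPM to between 0 and 18.6 CPM (median 0.730). In the 13 morulae the median of both was below 1 CPM. Chit1, a chitinase, was at 190.2, 423, 344 and 241 CPM at the 8-cell stage and at 0 to 60.0 CPM (median 1.22) in morulae. Obox8, an oocyte-specific homeobox gene, fell by 6.63 ± 0.91 (SE, adjusted p = 1.4e-05), and Tdpoz4, a member of a family of germline BTB genes, fell by 6.53 ± 0.84 (SE, adjusted p = 5.9e-06). Robo1, a receptor for Slit proteins, and Inka1, an inhibitor of the kinase PAK4, were left with 2 and 3 reads in the 13 morulae together. The other members of the 15 largest falls were Ccser1, Ppp1r16b, Apol7b, Sh2d3c, Ric3, Spz1 and Colgalt2, with log2 changes from -6.63 to -6.10.

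Pluripotency genes changed in both directions, while the trophectoderm genes that changed were higher in morulae. Of 18 pluripotency and inner cell mass genes tested, 7 were higher and 4 lower in morulae (38.9% and 22.2%, against 6.99% and 9.37% of all genes). Their median log2 change was 0.94, against -0.07 over all genes. Pou5f1, the OCT4 gene, was at 74.7, 32.7, 30.9 and 76.2 CPM at the 8-cell stage and at 332 to 784 CPM (median 497) in morulae, a rise of 3.33 ± 0.30 (SE, adjusted p = 3.7e-08). Tfcp2l1, a transcription factor of the naive pluripotent state, was at 1.41, 106, 4.41 and 70.8 CPM and then at 559.5 to 2070.3 CPM (median 1044). Both separated the stages completely. The T-box gene Tbx3 rose by 3.52 ± 0.41 (SE, adjusted p = 1.7e-06) and Dppa5a, an RNA-binding protein of pluripotent cells, by 2.22 ± 0.21 (SE, adjusted p = 6.8e-08). Klf17, Fgf4, Klf2 and Spic were the members that fell. Nanog was at 11.3, 0, 44.1 and 10.8 CPM and then at 6.48 to 548 CPM (median 73.0), with a log2 change of 2.86 ± 0.98 (SE, adjusted p = 0.045). The Nanog call was lost in 15 of 30 alternatives. It ended without 8-cell library 1, 2 or 4 (adjusted p = 0.077, 0.26 and 0.084), without morula 1, 6, 12, 14, 18, 20, 21 or 23 (0.052 to 0.063), and with edgeR (0.068). It also ended with median ratio scaling (0.052), without a filter (0.071) and by the exact Wilcoxon test (0.13). Klf4 overlapped between the stages, with 2.97 to 62.7 CPM and 0 to 160.0 CPM (median 28.9). Sox2 was at 0 in all 8-cell libraries and in 10 of the 13 morulae, with a highest value of 29.7 CPM, and was too low to be tested.

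Of 20 trophectoderm genes 13 could be tested, and of these 5 were higher (38.5%, against 6.99% of all genes) and none lower. A member at 0 at the 8-cell stage, such as Cdx2 or Krt8, passed the filter on low values only through the morulae in which it was high, so the count leans to rises. Krt8, a keratin of simple epithelia, had no read at the 8-cell stage and stood at 0 to 527 CPM (median 148) in morulae, at least 195-fold higher. Its partner Krt18 was at 0, 0, 2.20 and 0 CPM and then at 5.16 to 628 CPM (median 72.8). Lrp2, the endocytic receptor megalin, was at 0, 9.65, 0 and 1.35 CPM and then at 2.58 to 1931 CPM (median 449), so that the lowest morula fell within the 8-cell range while the other 12 lay above it. Cdx2, the factor that specifies the trophectoderm, was at 0 in the 8-cell libraries and at 0 to 199 CPM (median 51.6) in morulae, 3 of which had no read. Against the floor it was at least 91.6-fold higher over the group, and the exact Wilcoxon test did not call it (adjusted p = 0.11). Gata3 was above all 8-cell values in 9 of 13 morulae and did not pass the test (log2 change 4.29 ± 1.55 SE, adjusted p = 0.059). Dab2, an endocytic adaptor, was higher in all 13 morulae, with a log2 change of 5.97 ± 0.71 (SE, adjusted p = 2.1e-06). Tead4 and Tfap2c, which act upstream of Cdx2, were already present at 76.5 to 194 CPM and 92.6 to 238 CPM at the 8-cell stage and their log2 differences were -0.04 ± 0.38 and 0.27 ± 0.35 (SE), neither of which passed the test.

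Of 10 primitive endoderm genes tested, 3 were higher and 2 lower (30% and 20%, against 6.99% and 9.37% of all genes). Gata6 was at 32.4, 12.6, 0 and 14.2 CPM at the 8-cell stage and at 177 to 616 CPM (median 391) in morulae, a rise of 5.28 ± 0.56 (SE, adjusted p = 4.3e-07) that was seen in every morula. Gata4, the GATA factor that follows it in the primitive endoderm, took the opposite course. It was at 249, 301, 179 and 149.7 CPM and then at 0 to 83.2 CPM (median 3.65), a log2 change of -5.33 ± 1.05 (SE, adjusted p = 0.00081). Amn, a partner of the endocytic receptor cubilin, fell by 4.36 ± 0.79 (SE, adjusted p = 0.00037). Col4a1, a chain of basement membrane collagen, and Lamc1, a laminin chain, were the other members higher in morulae, the latter not without 8-cell library 3 or 4 (adjusted p = 0.061 and 0.062).

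**Figure D3:**
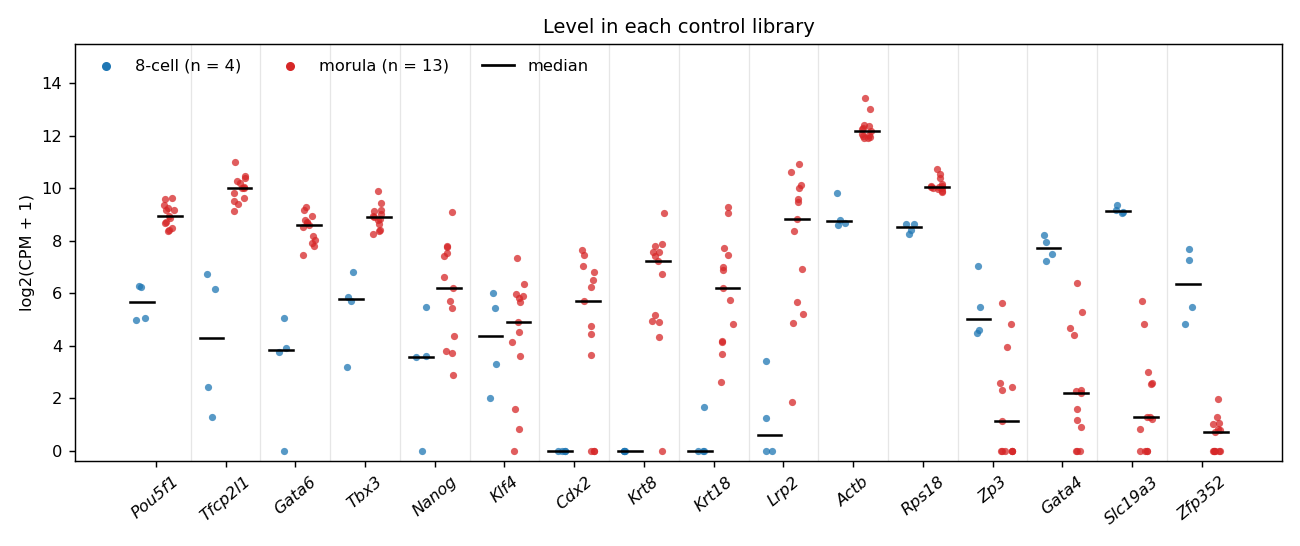
Level on the log2(CPM + 1) scale of 16 genes in each control library, blue for the 8-cell stage (n = 4) and red for morulae (n = 13), with black bars at the medians. Pou5f1, Tfcp2l1, Gata6, Actb and Rps18 are higher in every morula than in any 8-cell library, whereas Cdx2, Krt8, Krt18, Lrp2, Nanog and Klf4 spread widely among the morulae.

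Lineage genes differed in how far they spread between single morula cells. On the log2 scale the SD over the 13 morulae was 0.42 for Pou5f1, 0.51 for Tfcp2l1 and 0.55 for Gata6, and 2.89 for Cdx2, 3.60 for Gata3, 2.76 for Lrp2 and 2.35 for Krt8. Nanog had 1.90 and Klf4 2.27, Krt18 2.08 and Aqp3 0.987. Sox2 had 1.56 and was at 0 in 10 of the 13. Cdx2 was at 0 in 3 morulae, Gata3 in 2, and Krt8 and Klf4 in 1 each. Lrp2, Nanog and Krt18 also spread but were above 0 in all 13. What part low levels and missing reads have in the spread was not tested. Nanog and Klf4 varied together (Pearson's r = 0.789, Spearman's rho = 0.885). Lrp2 followed Gata3 (Pearson's r = 0.810, Spearman's rho = 0.90 over 13 cells) and Cdx2 followed Gata3 (r = 0.719, rho = 0.741). Gata6 ran against Klf4 (r = -0.709, rho = -0.610) and against Cdx2 (r = -0.606, rho = -0.680). Krt8 and Cdx2 were scarcely related (r = 0.174). These were 6 of 66 pairs of 12 genes described, of which 9 had r above 0.5 and 2 below -0.5. The cells share depth and amplification, and no p is given.

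Genes of the actin cytoskeleton that changed were all higher in morulae. Of 26 actin and myosin genes tested 15 were higher in morulae (57.7%, against 6.99% of all genes) and none lower, and the median log2 change was 1.63. Actb, cytoplasmic beta-actin, was at 902, 413, 439 and 384 CPM at the 8-cell stage and at 3835 to 11181 CPM (median 4633) in morulae, with a log2 change of 3.33 ± 0.23 (SE, adjusted p = 4.7e-10). Its gamma partner Actg1 was at 62.0, 32.7, 139 and 121 CPM and then at 794 to 1276 CPM (median 880.4) (log2 change 3.67 ± 0.27 SE, adjusted p = 1.3e-09). Neither overlapped between the stages. The rise took in the light chains Myl6, Myl12a and Myl12b, the heavy chain Myh10, the crosslinkers Actn1 and Actn4, the filament-turnover proteins Cfl1 and Pfn1, and the tropomyosins Tpm1 and Tpm4. These were named after their values were seen. Their log2 changes lay between 1.26 for Cfl1 and 6.50 for Tpm4. In RefSeq promoter windows (GRCm38.p6, 250 bases before and 50 after the annotated start) a CArG box, the element bound by serum response factor, stood in 3 of 25 genes of the list with a window (12.0%) and in 1.59% of the 9243 genes tested that had one. It is shown here because actin genes are its best known targets. It was searched on both strands, among 13 motifs chosen after the values were seen, and overlaps between motifs were not counted. The boxes, in capitals, and the coordinates of the stretches printed were as follows.
Actg1, chr11:120348566-120348595, minus strand: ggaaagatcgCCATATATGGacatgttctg
Myl6, chr10:128493040-128493069, minus strand: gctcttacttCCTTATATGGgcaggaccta
Vil1, chr1:74409301-74409330, plus strand: ccctatcttcCCTTATATGGtgaaggaagt
Actg1 and Myl6 were among the genes that rose, and Vil1, the microvillar protein villin, was not called. The letters GGAATG, the core of the element bound by TEAD factors, stood in 36.0% of the windows of this list and in 14.1% of all.

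Genes of cell contacts were called in small numbers. Of 13 adherens junction genes 3 were higher and 1 lower (23.1% and 7.69%, against 6.99% and 9.37% of all genes). Of 14 tight junction genes 2 were higher (14.3%), and of 7 desmosome genes 1 was higher (14.3%). Cdh1, E-cadherin, was already at 47.9, 144, 66.1 and 240.1 CPM at the 8-cell stage and at 114 to 342 CPM (median 227) in morulae. Its call, like that of the plakoglobin gene Jup, ended without 8-cell library 1 (adjusted p = 0.16 for both). Neither edgeR, DESeq2 nor the exact Wilcoxon test called them (0.071 to 0.20). Without library 3 Cdh1 had an adjusted p of 0.12, and without library 4 Jup had 0.12. Alpha-catenin, Ctnna1, rose by 1.92 ± 0.48 (SE, adjusted p = 0.0065), but not without library 2 (adjusted p = 0.072) or by the exact Wilcoxon test (0.060). Cldn4, a claudin of tight junctions, was at 18.3, 83.2, 2.20 and 80.3 CPM and then at 39.0 to 925 CPM (median 466), and Ybx3, a binding partner of tight junction protein ZO-1, rose by 1.74 ± 0.29 (SE, adjusted p = 0.00016) in every morula. Perp, a desmosome component, rose by 4.09 ± 0.88 (SE, adjusted p = 0.0019). Nectin3, an adhesion receptor, fell by 2.96 ± 0.65 (SE, adjusted p = 0.0025). Tjp1, the ZO-1 gene, ranged from 25.6 to 132 CPM at the 8-cell stage and from 0 to 198 CPM (median 67.3) in morulae, and Cldn6 was at 0 in the median morula.

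Of 17 polarity genes 2 were higher and 1 lower (11.8% and 5.88%, near the shares of all genes), and the sign of their median turned with quantile normalization and without each 8-cell library in turn. The basolateral protein gene Llgl2 fell from between 190.2 and 355 CPM to between 17.5 and 208 CPM (median 53.6). Prkci and Pard6b, which encode the apical kinase aPKC and its partner PAR6, were called higher, but Prkci not without library 1 or 3 and Pard6b not without library 2 or 3 (adjusted p between 0.063 and 0.12). Neither did edgeR call Prkci (0.13). Of 19 Hippo pathway genes 2 were higher and 2 lower, with a median near 0, and the shares, 10.5% each way, were near those of all genes (6.99% and 9.37%). Amot, angiomotin, which holds YAP1 in the cytoplasm of inner cells, was at 11.3, 2.97, 0 and 56.0 CPM and then at 65.8 to 501 CPM (median 154). Nf2, merlin, an activator of the pathway, fell from between 337 and 680.2 CPM to between 47.4 and 250.2 CPM (median 126). Wwtr1, the TAZ gene, rose by 3.17 ± 0.76 (SE, adjusted p = 0.0048), and Yap1 fell by 1.48 ± 0.45 on the log2 scale (SE, adjusted p = 0.026), a call that ended without 8-cell library 1, 3 or 4 (adjusted p = 0.050, 0.055 and 0.14).

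Among the pumps and channels that later inflate the blastocyst 1 of 10 was higher and 4 were lower (10% and 40%, median log2 change -1.11). The shares of all genes were 6.99% and 9.37%. Aqp3, a channel for water and glycerol, was at 84.5, 2.97, 0 and 39.8 CPM and then at 71.0 to 915 CPM (median 317). The sodium pump subunit gene Atp1b3 fell from between 485 and 866 CPM to between 16.7 and 296 CPM (median 117), without overlap, and Atp1b2 fell by 5.47 ± 0.90 (SE, adjusted p = 0.00012). Slc12a2, the sodium-potassium-chloride cotransporter, was at 518, 529, 595 and 368 CPM and then at 14.8 to 247 CPM (median 70.6). Atp1b1, the beta subunit of the mature trophectoderm, was not called (log2 change 0.76 ± 1.43 SE, adjusted p = 0.76).

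**Figure D4:**
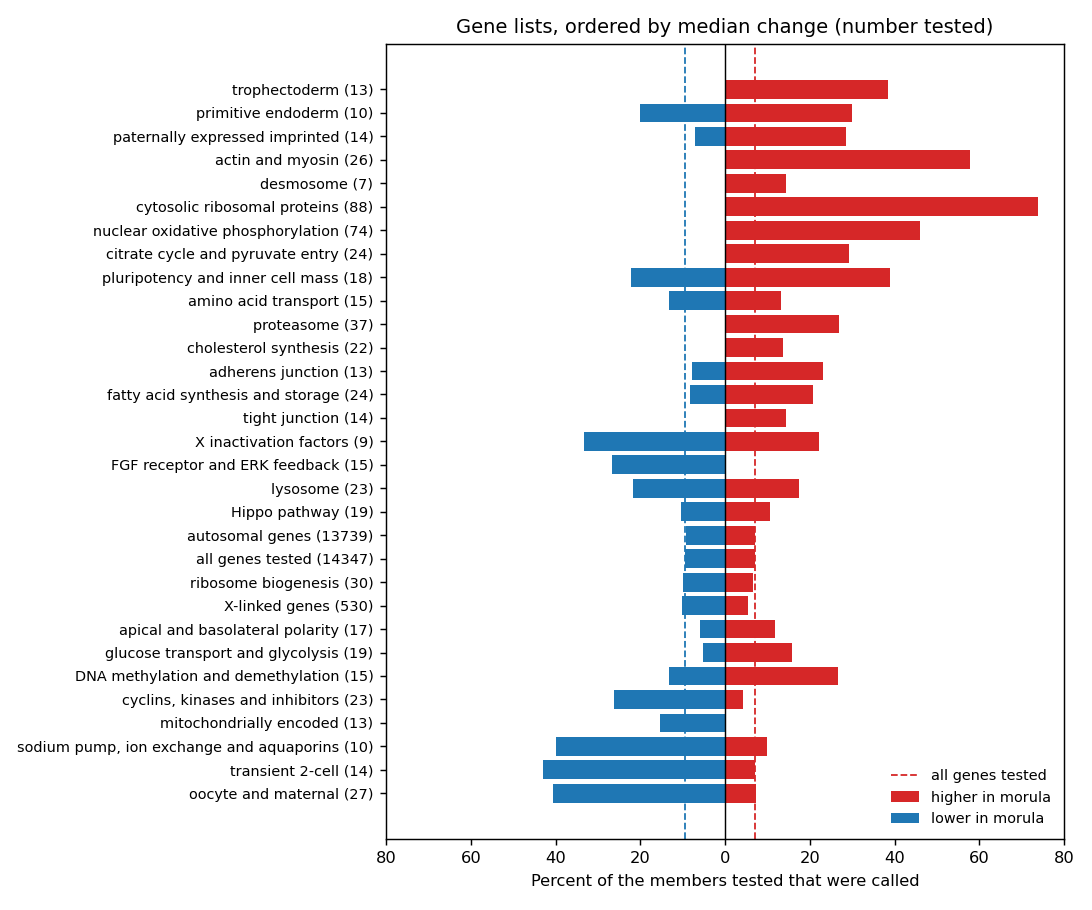
Percent of the tested members of each gene list that were called higher (red, to the right) or lower (blue, to the left) in morulae, ordered by the median log2 change, with the number tested in parentheses. Dashed lines mark 6.99% and 9.37%, the shares over all genes tested. Ribosomal proteins reach 73.9% to the right, and oocyte and transient 2-cell genes reach 40.7% and 42.9% to the left.

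Most genes for the proteins of the ribosome were higher in morulae. Of 88 cytosolic ribosomal protein genes tested, 65 were higher in morulae (73.9%, against 6.99% of all genes) and none lower. In all, 87 had a positive change, with a median of 1.26 on the log2 scale. Together they took 3.18 ± 0.521% of the reads outside rRNA at the 8-cell stage (SD, n = 4) and 7.21 ± 0.993% in morulae (SD, n = 13; exact permutation test, p = 0.00042, the smallest that these libraries allow). Rps18, of the small subunit, was at 339.6, 303, 399 and 397 CPM and then at 923 to 1696 CPM (median 1062), a rise of 1.66 ± 0.17 (SE, adjusted p = 4.3e-07). Rpl5, which carries 5S RNA into the large subunit, was at 396, 388, 520.3 and 341 CPM and then at 837 to 1531 CPM (median 1234). In 58 of the 88 genes every morula lay above every 8-cell library, against 2.82% of all genes tested. Processed pseudogenes share sequence with many of these genes and could take or give reads. Transcript length moved with the result: the median log2 change was 0.44 in the fifth of genes with the shortest transcripts and -0.54 in the fifth with the longest. Genes under 1500 bases outside the ribosomal and oxidative phosphorylation lists had a median change of 0.34, and 7.50% of them were higher. What part length has in the rise was not tested.

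Ribosomal protein messages begin with a run of pyrimidines, the 5′ terminal oligopyrimidine tract through which mTOR controls their translation. At the annotated start itself a C followed by 4 pyrimidines, read on the transcribed strand, stood in 14 of the 63 genes of the list with a promoter window (22.2%) and in 2.96% of all genes with a window. The letters CCGGAAG, an ETS factor element, stood in 41.3% of the list and in 21.1% of all, on either strand. The 4 genes with the tract and the smallest p, picked after the values were seen, are printed with 15 bases on each side of the start. Capitals mark the pyrimidines from the annotated start onward, and those directly before it are in small letters.
Rps18, chr17:33955651-33955680, minus strand: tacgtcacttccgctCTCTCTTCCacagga
Rpl14, chr9:120571502-120571531, plus strand: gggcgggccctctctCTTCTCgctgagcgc
Rpl35a, chr16:33056467-33056496, plus strand: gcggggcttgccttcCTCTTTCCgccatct
Rplp2, chr7:141447636-141447665, plus strand: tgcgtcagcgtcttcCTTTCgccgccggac
The log2 changes of these genes were 1.66 for Rps18, 1.51 for Rpl14, 1.67 for Rpl35a and 1.62 for Rplp2.

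Of 30 genes for nucleolar factors that assemble ribosomes, 2 were higher and 3 lower (6.67% and 10.0%), much as among all genes (6.99% and 9.37%). Npm1, nucleophosmin, was at 1298, 1432, 1942 and 1124 CPM and then at 2547 to 4209.7 CPM (median 3005), and Nhp2, a protein of H/ACA particles, rose by 1.71 ± 0.24 (SE, adjusted p = 1.5e-05). The rise of Npm1 was 0.84 with quantile normalization, short of the fold of 2. Wdr43 and Rrp12, of the small subunit processome and its export, fell by 1.53 and 2.25 on the log2 scale. Of 37 proteasome genes 10 were higher (27%, against 6.99% of all genes) and none lower (median 0.59). Of these the core subunit gene Psma7 was at 134 to 215 CPM and then at 438 to 999.6 CPM (median 578). The ATPase gene Psmc3 rose by 2.79 ± 0.57 (SE, adjusted p = 0.0011).

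Nuclear genes for respiration that were called were higher in morulae, and mitochondrial genes that were called were lower. Of 74 nuclear genes for oxidative phosphorylation, 34 were higher in morulae (45.9%, against 6.99% of all genes) and none was lower (9.37% of all genes). The other 40 were not called, and the median log2 change of the list was 1.09. The transcripts of the list are short as well, with a median of 992 bases. Cox6c, a subunit of cytochrome oxidase, was at 138, 139.6, 159 and 171 CPM and then at 399 to 654 CPM (median 514), a rise of 1.78 ± 0.21 (SE, adjusted p = 1.2e-06). Atp5d, of the ATP synthase, rose by 1.59 ± 0.27 (SE, adjusted p = 0.0002) and Ndufb4, of complex I, by 3.65 ± 0.62 (SE, adjusted p = 0.00018). All 13 mitochondrially encoded protein genes had a negative change, of which 2 were called lower (15.4%, against 9.37% of all genes) and 11 were not called. mt-Co1, a catalytic subunit of cytochrome oxidase, was at 5071, 5173, 4610.0 and 7523 CPM and then at 1283 to 4846 CPM (median 2109). mt-Atp6 fell by 1.37 on the log2 scale, though not without library 2 (adjusted p = 0.060) or on the deposited scale. Mitochondrial RNA as a whole took 2.25 ± 0.423% of the reads outside rRNA at the 8-cell stage (SD, n = 4) and 1.30 ± 0.210% in morulae (SD, n = 13), with p = 0.00042 by the exact permutation test. Light libraries held 0.75% to 1.35% at both stages.

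Of 24 genes of the citrate cycle and pyruvate entry 7 were higher (29.2%, against 6.99% of all genes) and none lower (median 1.07). Suclg2, of succinyl-CoA ligase, rose by 2.70 ± 0.54 (SE, adjusted p = 0.001), Mdh2, malate dehydrogenase, by 1.21 ± 0.28 (SE, adjusted p = 0.0031) and Pdhb, of pyruvate dehydrogenase, by 1.21 ± 0.29 (SE, adjusted p = 0.0049). Glucose transport and glycolysis were mixed, with 3 of 19 higher and 1 lower (15.8% and 5.26%), and the sign of the median turned on the deposited scale. Slc2a8, a glucose transporter of early embryos, was at 1.41, 7.43, 6.61 and 18.9 CPM and then at 79.6 to 340.2 CPM (median 139). Hk2, hexokinase 2, was at 0, 0, 0 and 1.35 CPM and then at 0 to 135 CPM (median 44.4), while Ldhb, a lactate dehydrogenase subunit abundant in oocytes, fell by 3.53 ± 0.94 (SE, adjusted p = 0.011), a call that edgeR did not make (0.078). Aldoa was called higher, but had an adjusted p of 0.062, 0.11 and 0.076 without library 2, 3 and 4. The transporters Slc2a1 and Slc2a3 were not called.

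In lipid metabolism 5 of 24 fatty acid genes were higher and 2 lower (20.8% and 8.33%, against 6.99% and 9.37% of all genes). Scd3, a stearoyl-CoA desaturase, was at 476, 1032, 1254 and 461 CPM at the 8-cell stage and at 1.95 to 198 CPM (median 26.0) in morulae, a log2 change of -4.97 ± 0.85 (SE, adjusted p = 0.00018). The ligase Acsl4 fell by 3.80 ± 0.84 (SE, adjusted p = 0.0025), while Fabp5, a fatty acid carrier, went from at most 1.41 CPM to between 18.6 and 228 CPM (median 52.3). Lpin1, a phosphatidate phosphatase, was at 0 at the 8-cell stage and between 0 and 171 CPM (median 33.3) in morulae. Of 22 cholesterol genes 3 were higher (13.6%) and none lower. Stard4, a sterol carrier, was at 0 at the 8-cell stage and above 0 in 11 of 13 morulae, and was not called by the exact Wilcoxon test (adjusted p = 0.065). Msmo1, a late step of cholesterol synthesis, was called higher, but not without library 1 (adjusted p = 0.056). Of 15 amino acid transporters 2 rose and 2 fell (13.3% each way). Slc6a9, a glycine carrier, fell from between 9.86 and 97.1 CPM to between 0 and 14.6 CPM (median 0.782). Slc6a6, a taurine carrier, fell by 2.92 ± 0.65 (SE, adjusted p = 0.0027). Slc6a14 rose by 4.13 ± 0.89 (SE, adjusted p = 0.0019) and Slc1a1 by 1.63 ± 0.42 (SE, adjusted p = 0.0079), the latter not without library 2 (adjusted p = 0.087).

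Of 23 lysosomal genes 4 were higher (17.4%, against 6.99% of all genes), 5 lower (21.7%, against 9.37%) and 14 not called. Grn, progranulin, was at 84.5, 195, 4.41 and 75.5 CPM and then at 495 to 1074 CPM (median 752), and Ctsd, cathepsin D, rose by 2.54 ± 0.34 (SE, adjusted p = 9.9e-06). Cathepsin C, Ctsc, was at 1146, 731, 736 and 1204 CPM and then at 126 to 369.8 CPM (median 248), and cathepsin B, Ctsb, fell by 2.94 ± 0.47 (SE, adjusted p = 8.5e-05). None of these 4 overlapped between the stages.

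Of 27 oocyte and maternal genes tested, 11 were lower in morulae (40.7%, against 9.37% of all genes), 2 were higher and 14 were not called, and the median log2 change was -2.08. The sum of 6 oocyte markers was 143 to 276 CPM at the 8-cell stage and 8.64 to 95.7 CPM in morulae. Nlrp2, a maternal NLR protein, was at 11.3, 23.0, 11.0 and 5.40 CPM and had no read in any morula, at least 56.3-fold lower. Gdf9, a growth factor of the oocyte, went from between 17.6 and 38.0 CPM to between 0 and 15.1 CPM (median 1.95), and edgeR did not call it (adjusted p = 0.098). Zbed3, a member of the subcortical maternal complex, was at 218, 217, 185 and 279 CPM and then at 50.9 to 134 CPM (median 80.4), and Omt2a fell by 1.91 ± 0.44 (SE, adjusted p = 0.0036). Zp3, of the zona pellucida, was at 21.1, 131, 44.1 and 22.9 CPM and then at 0 to 49.1 CPM (median 1.22), but its call was lost without library 2 (adjusted p = 0.10) or 3 (0.059) and with edgeR and DESeq2 (0.14 for both). Khdc3, another gene of the subcortical complex, rose, from between 0 and 83.6 CPM to between 195 and 897 CPM (median 465). Of 14 genes that peak at the 2-cell stage, 6 were lower and 1 higher (42.9% and 7.14%, against 9.37% and 6.99% of all genes). Zfp352 was at 43.7, 152, 207 and 27.7 CPM at the 8-cell stage and at 0 to 2.92 CPM (median 0.616) in morulae. Its median was 90.6 CPM at the control 2-cell stage and 0.621 CPM at the 4-cell stage, so the 8-cell values of this gene were nearer to the former. Scd3, with medians of 130.1 and 4.85 CPM, and Chit1, with 42.7 and 0.226 CPM, are not in this list. Their 8-cell values all lay above the 2-cell medians. The course over these stages is given for these genes only, not for the other members of the list. Pramel6 was the member that rose, from between 46.5 and 77.2 CPM to between 293 and 935 CPM (median 485), and Zscan4d was absent or at 1 read.

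Of 15 genes of FGF receptor signalling and its feedback, 4 were lower (26.7%, against 9.37% of all genes) and none higher. The sign of their median turned without each of the 8-cell libraries in turn. Fgf4, the ligand made by the inner cell mass, was at 103, 86.1, 39.7 and 131 CPM and then at 0 to 34.4 CPM (median 0), though neither edgeR nor DESeq2 called it (adjusted p = 0.052 and 0.075). The feedback inhibitor Spry4 fell by 3.09 ± 0.75 (SE, adjusted p = 0.0055). The adaptor Grb2 and the inhibitor Spred1 were called lower, the former not without library 2 or 3 (adjusted p = 0.062 and 0.052) and the latter not without library 1, 2 or 4 (0.11, 0.059 and 0.11) or by edgeR or DESeq2 (0.063 and 0.083). The receptor Fgfr2 was not called (adjusted p = 0.34). Of 23 cell cycle genes 6 were lower and 1, Cdk4, was higher (26.1% and 4.35%, against 9.37% and 6.99% of all genes). Cdc20, the activator of the anaphase-promoting complex, was at 1285, 1219, 586 and 950.3 CPM and then at 137 to 569 CPM (median 275). The mitotic kinase Plk1 and cyclin B1, Ccnb1, fell by 1.72 and 1.44 on the log2 scale, and cyclin E1, Ccne1, fell by 1.17. Each of these 3 calls was lost without library 4 (adjusted p = 0.054, 0.052 and 0.055), those of Plk1 and Ccne1 also without library 2 (0.086 and 0.071) and that of Ccnb1 without library 1 (0.071).

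Of 15 genes of DNA methylation 4 were higher and 2 lower (26.7% and 13.3%, against 6.99% and 9.37% of all genes). Tet2, which oxidizes methylcytosine, was at 67.6, 26.7, 99.2 and 5.40 CPM and then at 71.4 to 1304 CPM (median 549). The de novo methyltransferase Dnmt3b rose by 3.79 ± 0.83 (SE, adjusted p = 0.0024), and the glycosylase Mbd4 fell by 3.76 ± 0.94 (SE, adjusted p = 0.0067), a call that edgeR and DESeq2 did not make (0.12 and 0.10). Trim28, which guards imprints, was called higher at a log2 change of 1.00, and without library 1 its change was 0.70 (adjusted p = 0.089). It also came under the fold of 2 without morula 9, 16, 18, 23 or 26 (0.92 to 1.00). The same held with DESeq2 (0.87), median ratio scaling (0.90), quantile normalization (0.94) and library weights (0.97). After thinning it was 0.98, and without mitochondrial genes 0.99.

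Several RNAs that are read from the paternal copy were higher in morulae. Xist was at 182 to 2881 CPM (median 1529) in them, and the lowest value, in morula 2, went with an X to autosome signal of 2.17%, the lowest of the 17 libraries, and no Y-linked read. Of 14 paternally expressed imprinted genes tested, 4 were higher and 1, Usp29, was lower (28.6% and 7.14%, against 6.99% and 9.37% of all genes). Snrpn, a splicing protein, was at 0, 0, 26.5 and 0 CPM and then at 14.2 to 109 CPM (median 66.3). Impact was at 0, 0, 0 and 40.5 CPM and then at 0 to 149.8 CPM (median 43.9), and lost its call without library 1, 2 or 3 (adjusted p between 0.091 and 0.098) and with edgeR and DESeq2 (0.22 and 0.13). Usp29 was at 87.4, 264, 8.82 and 84.3 CPM and then at 0 to 17.1 CPM (median 0). The X-linked genes had a median log2 change of -0.13, against -0.06 for autosomal genes, and the X to autosome signal was 3.55 ± 0.212% and 3.53 ± 0.465% (SD, exact permutation p = 0.96). Of 9 X inactivation genes Xist and Tsix were higher and 3 lower (22.2% and 33.3%). Rlim, the maternal activator of Xist, was at 1123, 1152, 578 and 1206 CPM and then at 5.02 to 514 CPM (median 286), and its adjusted p was 0.068 to 0.076 without library 1, 2 or 4. Chic1 fell by 3.84 ± 1.04 (SE, adjusted p = 0.012), and edgeR and DESeq2 did not call it (0.10 and 0.071). Gja1, connexin 43, the single member of the cumulus list that could be tested, rose from between 46.3 and 298 CPM to between 449 and 928 CPM (median 583), while Vcan, Inhba and Inha of that list were at 0 in all 17 libraries. Both sperm genes tested were not called.

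Fewer genes were called for this step in the light-exposed embryos (8 and 6 libraries), which share no library with the control group. The light calls came from the fit of both groups together over 17127 genes, and the control calls from control libraries alone over 14347. The numbers of libraries differed too, so the counts do not compare the size of the step between the groups. Over 17127 genes, 946 changed between light 8-cell and light morula libraries (5.52%), 451 of them higher (2.63%) and 495 lower (2.89%), and 422 changed by a different amount in the 2 groups (2.46%, limma interaction term). Of these 422, 187 had a change above that of the light group (1.09% of all) and 235 below it (1.37%). The former made up 44.3%, a share that was 57.8% on the deposited scale and 60.1% with edgeR. The median difference over all genes was -0.16, and 0.05 and 0.26 in those fits. Of the 2347 genes called in the control group, 1976 had the same direction in the light group (84.2%, against 65.4% of all genes), 440 were also called there in that direction and 4 in the opposite one. The 440 were 18.7% of the control calls and 46.5% of the light calls. Genes that rose in the control group had a median log2 change of 2.45 there and 0.80 in the light group, and those that fell -2.86 and -0.85. These genes were picked by their control change, which by itself favours larger medians in the control group. The medians therefore do not compare the size of the step between the groups. The changes of the groups stood side by side at Actb (3.33 and 2.81), Ass1 (6.87 and 5.12) and Ppp1r16b (-6.60 and -5.42). The differences between the groups in these 3 did not pass the test (adjusted p = 0.58, 0.36 and 0.57).

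For several of the genes with the greatest differences the control and light libraries were apart at the 8-cell stage and overlapped in the morulae. Gsto1 was at 93.7 to 561 CPM (median 175) in light 8-cell libraries and at 373 to 2204 CPM (median 1352) in light morulae, so its change was smaller by 6.18 ± 0.61 (SE, adjusted p = 3.8e-08) on the log2 scale. Epas1 was at 68.9 to 169 CPM (median 109) and at 242 to 1107 CPM (median 580.5), a difference in change of 5.74 ± 0.62 (SE, adjusted p = 1.2e-07). In both genes the 8-cell libraries of the groups did not overlap, and the morulae did. Pramel6 was at 127 to 451 CPM (median 309.5) in light 8-cell libraries, 208 to 293 CPM (median 246) in light morulae, and its change differed by 3.23 ± 0.42 (SE, adjusted p = 8.3e-06). Slc14a2, a urea transporter, was at 40.9, 7.43, 17.6 and 25.6 CPM in the control 8-cell libraries, without a read in the control morulae and at 0 to 2.72 CPM (median 0) in light 8-cell libraries. Gab1, by 5.51, Snrpn, by 4.35, and Xist, by 5.57, also rose more in the control group, that of Xist not without 8-cell library 3 (adjusted p = 0.065). Y-linked reads reached 181 CPM in light 8-cell libraries and 143.5 CPM in light morulae, against at most 1.41 and 0.782 CPM in the control stages. What part this has in the difference of Xist was not tested. In control blastocysts the median of Gab1 was 0.932 CPM, that of Kcnq1ot1 1.75 CPM and that of Epas1 2.33 CPM, again below the morulae. Of the 89 ribosomal protein genes in the fit of both groups 14 differed in their change, and of the 74 oxidative phosphorylation genes 1 did. The share over all 17127 genes of that fit was 2.46%.

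**Figure D5:**
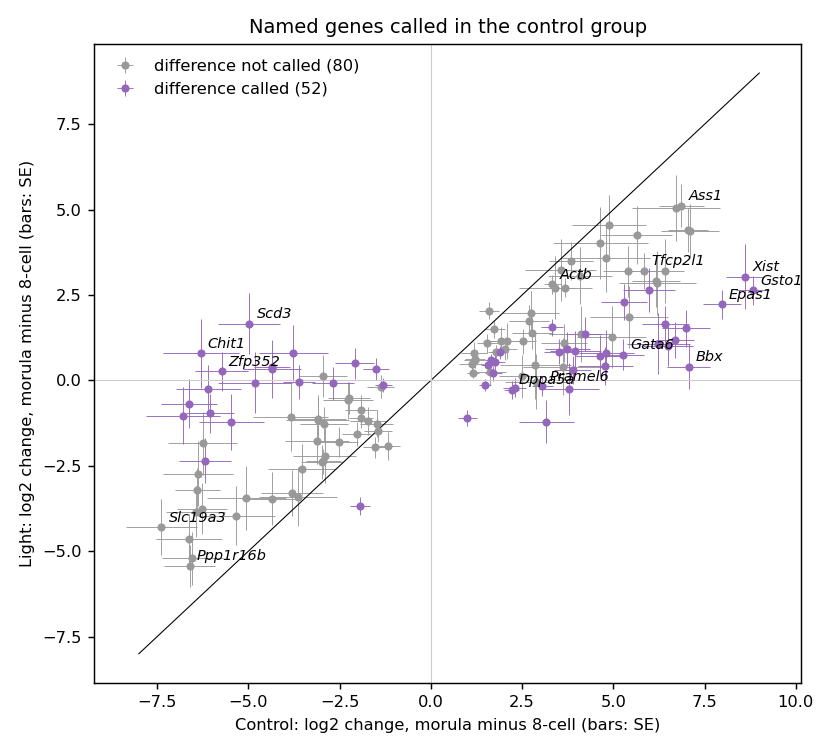
Log2 change from the 8-cell stage to the morula in the control group (horizontal) and in the light group (vertical) for the 132 named genes called in the control group, with standard errors and the line of equal change. Purple points are the 52 genes whose change was called different between the groups. Most points lie between the horizontal axis and the line, and Chit1, Scd3 and Zfp352 fell in the control group while their light values are above 0. All 132 genes were picked by a call in the control group, which favours larger changes on the horizontal axis.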

How the data were processed

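RNA of 67 libraries was made by SMART-seq2, and the 31 control and light libraries of the 8-cell and morula stages were compared. The submitters' processing notes name HISAT2, HTSeq 0.9.1 and mm9. The signal values deposited by the authors equal the reads on a gene over 1 constant of its library. Methods of the study speak of RPKM, yet transcript length had not entered the values. Multiplied back, at least 99.97% of the entries in every library were whole reads within 0.01, and these were scaled to CPM outside CT010467.1 and Gm42418. That unit was not foreseen, and the planned test for normalized values was kept.

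Tests covered genes over 1 CPM in 4 or more libraries of the comparison and were made by limma 3.58.1 (R 4.3.3, eBayes with trend) on log2(CPM + 1). A call required an adjusted p under 0.05 (by Benjamini and Hochberg) and a 2-fold difference on that scale, which understates the change of low genes because of the pseudocount. The groups' changes were compared by an interaction term. Library features were tested by exact permutation (2380 regroupings) in Python 3.11.15 with scipy 1.17.1. Adjusted p-values given in the text without another tool's name are limma's. Each library, a single cell by the methods of the study, was taken as 1 replicate, with no covariate.

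The members and the gene lists were chosen with earlier results of these data known, and no test was run over a list. Named were the 15 greatest rises and falls among genes called without overlap at a mean of at least 20 CPM, without predicted genes, up to 4 called members of each list by smallest p, a set of defining genes whatever their values, and the 4 genes with the smallest interaction p. Others are marked where they are named, and 2 genes that the rule selects are not reported here. Chromosomes and transcript lengths came from GENCODE M21 (26329 of 26414 symbols, 99.7%), of another build than the files', so no coordinates of genes are given, and promoter windows came from RefSeq (GRCm38.p6). Dates stood in place of 24 symbols.

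Total reads were 1967509 to 5907127 in the 8-cell and 3373581 to 6281955 in the morula libraries. Without molecular identifiers a read is not a molecule of its own, and counting intervals (95%, exact) and floors of 3 reads cover counting error only. The closest pair of libraries differed by more than counting error, with a chi-square per degree of freedom of 13.6 at the 8-cell stage and 19.4 in morulae. The limma script was tested on simulated data. Alternatives were edgeR 4.0.16 and DESeq2 1.42.0 on the whole reads, an exact Wilcoxon test, the deposited scale, median ratio and quantile scaling, CPM without mitochondrial genes, a pseudocount of 0.1, other filters (none, and a mean above 5), library weights, 1 fit over all control libraries, thinning to 453579 reads, a block for the replicate number, and fits with 1 library fewer.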

Additional observations from a re-analysis of the deposited data

Results flagged for a closer look

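Named genes and library features were checked in the 4 control 8-cell libraries only, and no other group was checked. In 19 of these 149 sets (12.75%, where chance gives about 5%), 1 library lay far from the rest. The gap to the nearest value was the whole range, a ratio of 1, for Bbx, Ass1, Tpm4, Acadl, Krt18, Hk2, Slc6a14, Snrpn, Impact and Kcnq1ot1, in which 1 library held reads and the other 3 held the same value. Each of these sets has 4 values only, and any value beside 3 equal ones gives a ratio of 1, however small the gap. For Kcnq1ot1 the library with reads was at 0.67 CPM. For Tpm4 and Snrpn the library with reads was 8-cell library 3, with 30.9 and 26.5 CPM. The ratio was 0.896 for Obox8, 0.974 for Ric3, 0.843 for Actb, 0.936 for Suclg2, 0.857 for Nhp2, 0.913 for Wdr43, 0.864 for Psmc3, 0.903 for Rlim and 0.887 for Cldn6.

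The change from the 8-cell stage to the morula differed between the control and the light group by the limma interaction term for 52 of 144 named genes. Over all 17127 genes tested it differed for 422 (2.46%). The named genes were chosen mostly by their control change, and 4 by the interaction p itself, so these 2 shares cannot be compared. Differences are control change minus light change on the log2 scale. Among genes with the largest rises they were 6.18 for Gsto1, 5.57 for Xist, 5.74 for Epas1, 6.66 for Bbx, 5.47 for Crip2, 5.51 for Gab1, 5.49 for Tpm4, 4.78 for Acadl and 5.16 for Tagln2. All of these were higher by more in the control group. Among the largest falls they were -5.75 for Abcb5, -5.95 for Ccser1, -7.10 for Chit1, -3.84 for Spz1, -5.85 for Colgalt2 and -5.09 for Robo1, and Slc14a2, with -4.75, also had no read in the control morulae.

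In the lineage lists the differences were 3.32 for Dab2, 1.77 for Pou5f1, 2.49 for Dppa5a, 2.67 for Tbx3, 4.52 for Gata6 and -4.70 for Amn. Genes of contacts, polarity, pumps and the Hippo pathway gave 3.10 for Cldn4, -2.59 for Llgl2, 4.00 for Aqp3, -4.25 for Atp1b2, 3.91 for Amot, 4.38 for Wwtr1 and 2.51 for Gja1. Genes of metabolism, ribosomes and the proteasome gave 2.87 for Slc2a8, 2.82 for Ndufa7, -1.18 for mt-Co1, 1.05 for Rps18, 1.11 for Rpl5, 1.62 for Rps16, 1.08 for Rps29, 1.5 for Nhp2, 1.23 for Psma7, -6.64 for Scd3, 3.57 for Grn and 1.75 for Ctsc. Maternal, 2-cell, methylation and imprinted genes gave 3.01 for Khdc3, -3.58 for Nlrp2, -1.84 for Zbed3, 3.23 for Pramel6, -6.00 for Zfp352, -2.59 for Obox3, 4.03 for Dnmt3b, -4.58 for Mbd4, 2.10 for Trim28, 4.35 for Snrpn and -4.75 for Usp29.

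Of the 52 differences 28 were called in every alternative but the block, and 14 were not called by edgeR. Without 8-cell library 1 the call was lost for Amn, Atp1b2, Cldn4, Khdc3, Ndufa7, Obox3, Psma7, Slc2a8 and Usp29 (adjusted p from 0.050 for Obox3 to 0.11 for Khdc3). Without library 2 it was lost for Amn, Aqp3, Dab2, Dnmt3b, Khdc3, Llgl2, Obox3, Psma7, Rps29, Spz1 and Usp29 (adjusted p from 0.052 for Spz1 to 0.13 for Usp29), and for Rps18, which came under the fold of 2. Without library 3 it was lost for Aqp3, Atp1b2, Cldn4, Dab2, Obox3, Psma7 and Xist (0.065 for Xist to 0.20 for Cldn4). Without library 4 it was lost for Atp1b2, Dab2, Dnmt3b, Llgl2, mt-Co1, Psma7, Rps29 and Usp29 (0.056 for Rps29 to 0.15 for Dnmt3b).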

How the results depend on the processing

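Of 132 named genes called between the control stages, 103 were called in every alternative but the replicate block, and 21 were not called without some 8-cell library, as given beside them. The exact Wilcoxon test did not make 12 of the named calls, edgeR 12 and DESeq2 9. Calls lost in such alternatives are given beside some genes only. The number called was 1488 to 1749 without an 8-cell library (736 to 793 higher, 752 to 956 lower) and 2199 to 2333 without a morula (933 to 1008 and 1266 to 1328). Fits that leave out an 8-cell library test the same question with 3 libraries in that stage. With edgeR 839 genes were called lower and 1658 in all, 64.6% of the 2347 shared. For the difference between the groups, 338 to 482 genes were called without an 8-cell library (157 to 203 above, 181 to 279 below), and 126 were below with edgeR, 124 with a mean above 5 CPM and 146 with a pseudocount of 0.1. In total edgeR called 316, of which 206 were among the 422.

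Only the replicate numbers 1 and 2 occur in both control stages. Their libraries did not deviate together (r = 0.008 and 0.015, with every pair between -0.024 and 0.029). These numbers are too few to tell whether libraries were paired. In a fit with the replicate number as a block, only libraries whose number occurs in both stages carry the stage difference. Its lack of calls therefore says little about the stages. With the replicate number as a block, limma called 0 genes between the control stages and 0 for the difference between groups, with 1738 and 1794 genes at an unadjusted p under 0.05, against 4322 and 2502 without it. The fit without the block called 2347, edgeR 1658 and DESeq2 2251 genes, with no adjusted p for 2130.

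The median change of the oocyte list, -2.08, was -1.73 on the deposited scale and -1.86 with quantile normalization (-2.17 to -1.74 without an 8-cell library). That of ribosome biogenesis was -0.13 and 0.042 on the deposited scale. Without an 8-cell library the FGF list ranged from -0.67 to -0.13 (0.05 with all) and the fatty acid list from -0.080 to 0.58 (0.13 with all). The difference between stages in reads outside rRNA ranged from -155100 to 188000 (with -69690 without library 1), in the X to autosome signal from -0.077 to 0.053 percentage points (0.038 without library 1), and in the share of the 20 most abundant genes from -0.85 to 0.54 (0.031 without library 1).

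Values of genes that were not called turned sign. Tead4 was 0.12 on the deposited scale, 0.069 with quantile normalization, 0.034 after thinning, and -0.24 to 0.21 without an 8-cell library, with 0.032 without morula 1. Klf4 was -0.086 with a pseudocount of 0.1, -0.085 with the block, -0.55 to 0.78 without an 8-cell library and -0.069 without morula 18. Cldn6 was 0.46 with DESeq2, 1.68 with edgeR and 1.31 with the block. Tjp1 was 0.17, 0.31 and 1.88 in these, -0.66 to 0.11 without an 8-cell library and 0.15 without morula 14. Atp1b1 was -0.23 without 8-cell library 2. The causes were not tested. Genes under about 1 CPM rest on 1 read or none at this depth, and 4 libraries at the 8-cell stage limit the precision of each change.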
